A study of Mus musculus with 8 samples.

Results

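The genes described here are the 10 mouse genes that make catecholamines, recycle the cofactor of their synthesis and carry them across membranes. They were chosen by their role in the pathway, with no threshold on a measured value, and all 10 were found among the 55573 genes of the deposited exon counts. C-LTMRs, the low-threshold mechanoreceptors with unmyelinated fibres, are sensory neurons of the dorsal root ganglia that respond to light touch of hairy skin, and tyrosine hydroxylase is their customary marker. The question was whether the rest of the catecholamine pathway accompanies tyrosine hydroxylase in these cells, and whether any of it differed when the transcription factor gene Bhlha9 was lost.

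The 8 libraries were made from GFP-positive C-LTMRs sorted from adult mice, with 2 biological replicates in each of 4 groups: male bhlha9 KO, male wild type (WT), female bhlha9 KO and female WT. The KO allele, the allele that carries GFP in KO and WT mice alike, the number of animals per library and the ganglia taken are not given in the sources used here. Each library held between 50919885 and 71956309 counts over genes. Values are CPM (a gene's counts relative to its library's TMM-scaled total). Levels are compared between genes as CPM per kilobase of exon (CPM per kb) unless stated otherwise. Bhlha9 had 0.156 and 0.277 CPM in male KO, against 151 and 161 CPM in male WT, and 0.470 and 0.253 CPM in female KO, against 140 and 127 CPM in female WT, so every library matched its labelled genotype. Of all genes in the counts, 23.1% reached 1 CPM in all 8 libraries. All 10 of 10 C-LTMR markers did, among them Th, Ret, Gfra2, Fam19a4 and Slc17a8. Their summed level was 5423 to 9343 CPM in KO and 7072 to 8364 CPM in WT libraries. Th itself makes up much of these sums, with 2975 to 5357 CPM in KO and 4030 to 4861 CPM in WT libraries. Glial and Schwann cell genes were also present, with 8 of 9 at 1 CPM or more in all libraries and a summed 3406 to 6033 CPM in KO and 3642 to 5845 CPM in WT libraries, and none of the 9 was at 0 throughout. The part of other cells in these sums was not tested, and in bulk samples fewer cells of a type and less RNA per cell cannot be told apart.

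Catecholamines are made from tyrosine in steps. Tyrosine hydroxylase (Th) makes L-DOPA in the rate-limiting step, aromatic L-amino acid decarboxylase (Ddc) turns L-DOPA into dopamine, and dopamine beta-hydroxylase (Dbh) turns dopamine into noradrenaline. Th needs tetrahydrobiopterin, which is made from GTP by GTP cyclohydrolase 1 (Gch1) and 6-pyruvoyltetrahydropterin synthase (Pts), among other enzymes, and is regenerated after use by quinoid dihydropteridine reductase (Qdpr). The vesicular monoamine transporters Slc18a1 (VMAT1) and Slc18a2 (VMAT2) load amines into vesicles. The dopamine transporter Slc6a3 and the noradrenaline transporter Slc6a2 take them back up at the plasma membrane.

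The promoters of the 3 enzymes that act in turn are shown because their genes lie at opposite ends of the measured range, Th near the top of all genes and Ddc and Dbh at or near 0. Each line gives the 250 bases before a RefSeq transcription start in GRCm38.p6, read 5′ to 3′ on the gene's strand, and capitals mark TGACGTCA (the cAMP response element), its core TGACG, or TATAAA, searched on both strands. They are chr7:142899996-142900245 (minus strand) for Th, chr11:11898145-11898394 and chr11:11890409-11890658 (both minus strand) for the pair of Ddc starts, and chr2:27165257-27165506 (plus strand) for Dbh. The Th window lies inside the annotated gene whose exons were counted, which extends upstream to 142931128. The window of Ddc start 2 and that of Dbh also lie inside their annotated genes.
Th: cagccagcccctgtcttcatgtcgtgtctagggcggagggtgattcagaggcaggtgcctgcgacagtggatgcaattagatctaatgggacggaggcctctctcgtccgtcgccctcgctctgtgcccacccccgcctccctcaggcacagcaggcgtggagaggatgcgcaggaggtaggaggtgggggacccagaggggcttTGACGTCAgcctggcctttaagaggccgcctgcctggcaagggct
Ddc start 1: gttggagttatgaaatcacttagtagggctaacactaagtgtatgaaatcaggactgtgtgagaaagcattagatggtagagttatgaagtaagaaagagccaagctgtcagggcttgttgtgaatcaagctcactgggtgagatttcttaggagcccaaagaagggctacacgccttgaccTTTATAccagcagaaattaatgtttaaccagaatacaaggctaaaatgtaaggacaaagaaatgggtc
Ddc start 2: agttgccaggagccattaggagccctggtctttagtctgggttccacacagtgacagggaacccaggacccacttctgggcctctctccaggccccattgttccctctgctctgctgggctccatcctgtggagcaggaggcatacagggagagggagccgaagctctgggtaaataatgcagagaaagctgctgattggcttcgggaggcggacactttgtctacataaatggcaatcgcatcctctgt
Dbh: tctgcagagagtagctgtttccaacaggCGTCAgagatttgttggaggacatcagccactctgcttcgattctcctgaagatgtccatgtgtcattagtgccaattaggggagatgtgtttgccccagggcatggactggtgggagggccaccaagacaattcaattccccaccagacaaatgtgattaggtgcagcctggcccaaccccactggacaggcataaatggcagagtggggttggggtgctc

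RefSeq windows of 300 bases (250 before the start and 50 after it) were found for 8 of the 10 genes. Ddc has a pair of windows, and a gene is counted where any of its windows holds the motif. TGACGTCA was in 2 of these 8 genes, Th, where its first base lay at position -45 from the start, and Slc18a2, at position -4, and it was in 1.79% of all 32851 windows. Its core TGACG, which overlaps every full element, was also in Dbh at position -222 and in Gch1 at position -88, so 4 of 8 genes held it, against 20.8% of all windows. TATAAA was in Ddc, at position -68 of the upstream start, and in Gch1, at position -188, which is 2 of 8 genes against 13.6% of all windows. The E-box CANNTG, which basic helix-loop-helix factors, the class of Bhlha9, generally recognise, was in 5 of 8 genes, against 72.3% of all windows, and the E-box CAGCTG, which is contained in CANNTG, was in 1 of 8 genes, against 16.3%. TGACTCA, the AP-1 element, was in 0 of 8 genes, against 5.2%. These are matches of letters only.

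Th was among the most abundant transcripts in every library, while most of the pathway after it was near or below detection. Th lies on chromosome 7 of GRCm38 from 142892752 to 142931128 (minus strand, ENSMUSG00000000214), with 2364 exonic bases in 14 merged exon blocks. It had 2975 and 4138 CPM in male KO libraries 1 and 2, against 4851 and 4481 CPM in male WT libraries 1 and 2. It had 3796 and 5357 CPM in female KO libraries 1 and 2, against 4861 and 4030 CPM in female WT libraries 1 and 2. The lowest and the highest value were both in KO libraries, and the KO and WT libraries overlapped over the sexes together. Per kilobase, Th ranked between the 11th and the 33rd of all genes in each library, with a mean of 1824 CPM per kb and a range of 1258 to 2266 CPM per kb. Its 2136888 counts were drawn from 491658002 over the 8 libraries, and its spread over libraries was 17.3% of its mean of 4311 CPM.

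The enzyme that follows, Ddc (chromosome 11 from 11814101 to 11898144, minus strand, ENSMUSG00000020182, 4461 exonic bases), had 0 counts in 7 of 8 libraries. The exception was female KO library 1, with 126 counts or 2.47 CPM. The other 3 KO libraries and all 4 WT libraries were at 0, where 3 counts, the limit that a count of 0 allows, come to 0.0421 to 0.0529 CPM depending on the library. A level in 1 library alone is not peculiar to Ddc, since 120 genes had at least 100 counts in 1 library and 0 in the other 7, and 9 of those had them in female KO library 1. The cDNA was amplified by PCR without molecular identifiers, so these counts are not separate molecules, and the limits cover counting error only.

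Dbh (chromosome 2 from 27165233 to 27183200, plus strand, ENSMUSG00000000889) had 0 counts in all 8 libraries. Taken over the 491658002 counts together, 3 counts allow at most 0.0061 CPM. Per kilobase, the pooled level of Th was 811126-fold above that limit for Dbh. The limit covers counting error only, so this ratio is no lower bound on the difference in the cells. Slc6a3 (chromosome 13 from 73536747 to 73578672, plus strand) and Slc6a2 (chromosome 8 from 92960079 to 93001667, plus strand), the uptake transporters for dopamine and noradrenaline, likewise had 0 counts in every library, with the same limit in CPM. Transcripts of these 3 genes were thus not detectable at this depth in KO or WT cells of either sex. A count of 0 is common here. By CPM per kb the genes at 0 shared a rank between 22089 and 25132 of 55573, depending on the library, so most genes were at 0 in each.

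**Figure D1:**
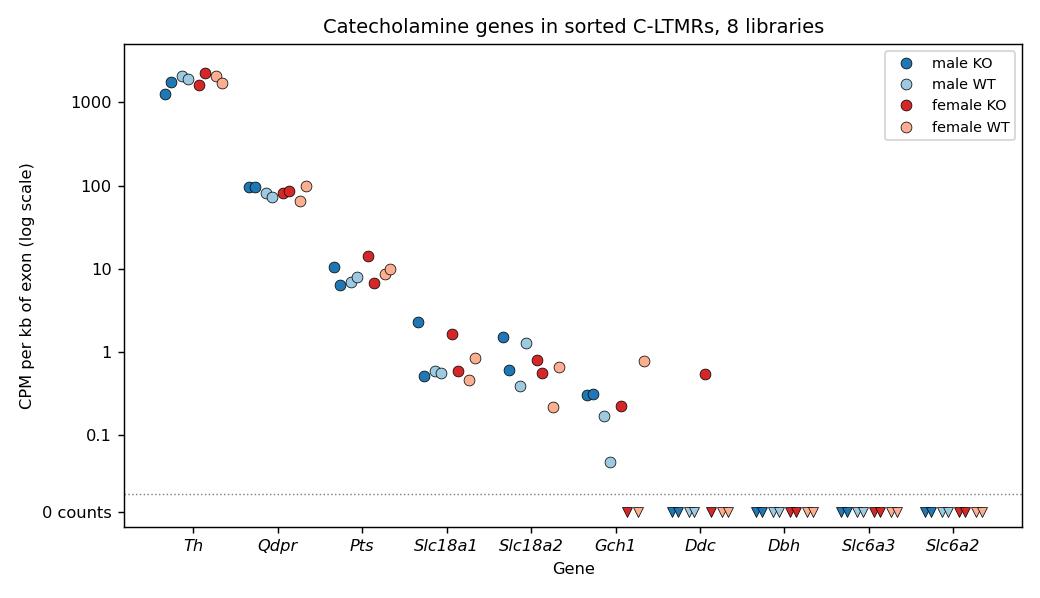
Level of each of the 10 genes in each library, as CPM per kb of exon on a log scale, with 2 libraries per group and triangles for 0 counts. Th sits at 1258 to 2266 CPM per kb, Qdpr and Pts form separate lower levels, both vesicular transporters and Gch1 lie near or below 1, Ddc is above 0 in 1 library, and Dbh, Slc6a3 and Slc6a2 are at 0.

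The cofactor genes split. Qdpr, which regenerates the cofactor (chromosome 5 from 45434021 to 45450236, minus strand, ENSMUSG00000015806, 1788 exonic bases), had 171 and 172 CPM in male KO, against 146 and 130 CPM in male WT, and 145 and 155 CPM in female KO, against 117 and 177 CPM in female WT. All 8 libraries thus held it, at 65.7 to 99.1 CPM per kb, and the highest and the lowest were both female WT libraries. Its exons overlap the antisense gene Gm42413 by 332 bases, and counting ignored strand, so a share of Qdpr counts cannot be told apart from Gm42413 counts (a mean of 54.4 CPM).

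Pts, which makes the pterin intermediate (chromosome 9 from 50521617 to 50528724, minus strand, 6101 exonic bases), had 64.7 and 38.7 CPM in male KO, against 42.8 and 48.4 CPM in male WT. It had 87.7 and 40.8 CPM in female KO, against 53.5 and 60.2 CPM in female WT. KO library 1 was the higher of its pair in both sexes, and the groups overlapped. At 6.34 to 14.4 CPM per kb, Pts was below Qdpr in every library.

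Gch1, whose product catalyses the entry step of cofactor synthesis (chromosome 14 from 47153895 to 47189413, minus strand, 6251 exonic bases), was low and uneven. It had 1.91 and 1.94 CPM in male KO, against 1.08 and 0.299 CPM in male WT, and 1.43 and 0 CPM in female KO, against 0 and 4.88 CPM in female WT. It was at 0 in 2 libraries, 1 of each genotype, and 308 of its 704 counts came from female WT library 2. The mean level was 0.231 CPM per kb, against 1824 CPM per kb for Th.

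The vesicular transporters were present in all libraries at a low level. Slc18a1, the form of neuroendocrine cells (chromosome 8 from 69037711 to 69089235, minus strand, 5401 exonic bases), had 12.5 and 2.77 CPM in male KO, against 3.19 and 3.002 CPM in male WT, and 8.85 and 3.19 CPM in female KO, against 2.50 and 4.61 CPM in female WT. The highest values were those of KO library 1 in each sex, while male KO library 2 lay below both male WT libraries and female KO library 2 between the female WT libraries. Slc18a2 (chromosome 19 from 59260896 to 59296012, plus strand, 5225 exonic bases), the form used by central monoamine neurons, had 8.04 and 3.19 CPM in male KO, against 2.03 and 6.71 CPM in male WT, and 4.15 and 2.93 CPM in female KO, against 1.15 and 3.45 CPM in female WT. Its values overlapped between the genotypes in both sexes, and 111 of its exonic bases overlap the antisense gene Gm29261.

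Set in order by mean CPM per kb, Th came before Qdpr at a ratio of 21.5, Qdpr before Pts at 9.48 and Pts before Slc18a1 at 9.51, and across each of these steps the libraries did not overlap. Slc18a1 (0.940 CPM per kb), Slc18a2 (0.757 CPM per kb), Gch1 and Ddc followed, and each overlapped its neighbour. The order was the same in CPM without division by length, but the size of the ratios depends on the lengths. Lengths pool the exons of all annotated transcripts, and Pts has 6101 exonic bases in 2 merged blocks. Without division by length Qdpr averaged 152 CPM and Pts 54.6 CPM. The part of length in the ratios was not tested. Within a library, Th stood 13.2 to 31.3 times above Qdpr, 112 to 339 times above Pts, 543 to 4434 times above Slc18a1 and 818 to 9371 times above Slc18a2 per kilobase. Counted at 1 CPM or more in all 8 libraries, 5 of the 10 genes were detected (Th, Qdpr, Pts, Slc18a1 and Slc18a2), against 23.1% of all genes in the counts. At 5 CPM the number was 3, against 17.6% of all genes.

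Tested across KO and WT, none of the genes passed. Of the 10, 6 had enough counts to be tested (Th, Gch1, Pts, Qdpr, Slc18a1 and Slc18a2), and 0 of these 6 reached an adjusted p under 0.05 in edgeR's quasi-likelihood test with Benjamini-Hochberg adjustment over all 22013 genes tested. In KO against WT over both sexes that rule called 0.00454% of all tested genes, which is Bhlha9 alone (log2 fold change -8.99, SE 0.34, adjusted p = 0.000211, n = 4 each). None of the 6 had an unadjusted p under 0.05 either, where 3.56% of all tested genes did, and DESeq2 called none of them, where it called 0.236% of tested genes. P-values rest on the spread between the biological replicates that the labels state.

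Th averaged 4066 ± 989 CPM in KO and 4556 ± 393 CPM in WT libraries (SD, n = 4 each), a log2 fold change of -0.17 with a 95% interval of -0.58 to 0.23. Qdpr averaged 161 ± 13.3 CPM in KO and 143 ± 25.8 CPM in WT libraries, a log2 fold change of 0.17 with an interval of -0.18 to 0.52. Pts averaged 57.9 ± 23.1 CPM in KO and 51.2 ± 7.43 CPM in WT libraries, with a log2 fold change of 0.18 and an interval of -0.44 to 0.79. For these 3 genes the interval reaches to less than 1 log2 unit on either side.

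The transporters were less precisely measured. Slc18a1 averaged 6.83 ± 4.70 CPM in KO and 3.33 ± 0.902 CPM in WT libraries, a log2 fold change of 1.03 with an interval of -0.29 to 2.36. Without male KO library 1 that value was 0.41. Slc18a2 averaged 4.58 ± 2.37 CPM in KO and 3.33 ± 2.44 CPM in WT libraries, a log2 fold change of 0.49 with an interval of -0.85 to 1.83. The interval for Gch1, -5.19 to 4.90 around -0.15, leaves its direction unknown.

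The 2 KO libraries with the highest Slc18a1 and Pts, male KO 1 and female KO 1, also had the lowest Th. They were the shallowest of the 8 at 56500253 and 50919885 counts. Male KO library 1 had the highest summed level of myelinated afferent markers, 5923 CPM, where the other KO libraries had 1166 to 2039 CPM and WT libraries 1001 to 1401 CPM (6 of 8 markers were at 1 CPM or more in all libraries and none at 0 throughout). It also had the highest sum of vascular and fibroblast markers, 60.1 CPM, within 3.03 to 60.1 CPM in KO and 2.56 to 49.1 CPM in WT libraries, with 0 of 7 markers at 1 CPM in all libraries and none at 0 throughout. Female KO library 1 had 1456 CPM and 3.03 CPM for the same lists. Peptidergic afferent markers summed to 236 to 1747 CPM in KO and 330 to 1537 CPM in WT libraries, with 4 of 8 at 1 CPM in all libraries and none at 0 throughout. The part of depth and of other cells in the values of Th, Pts and Slc18a1 was not tested.

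**Figure D2:**
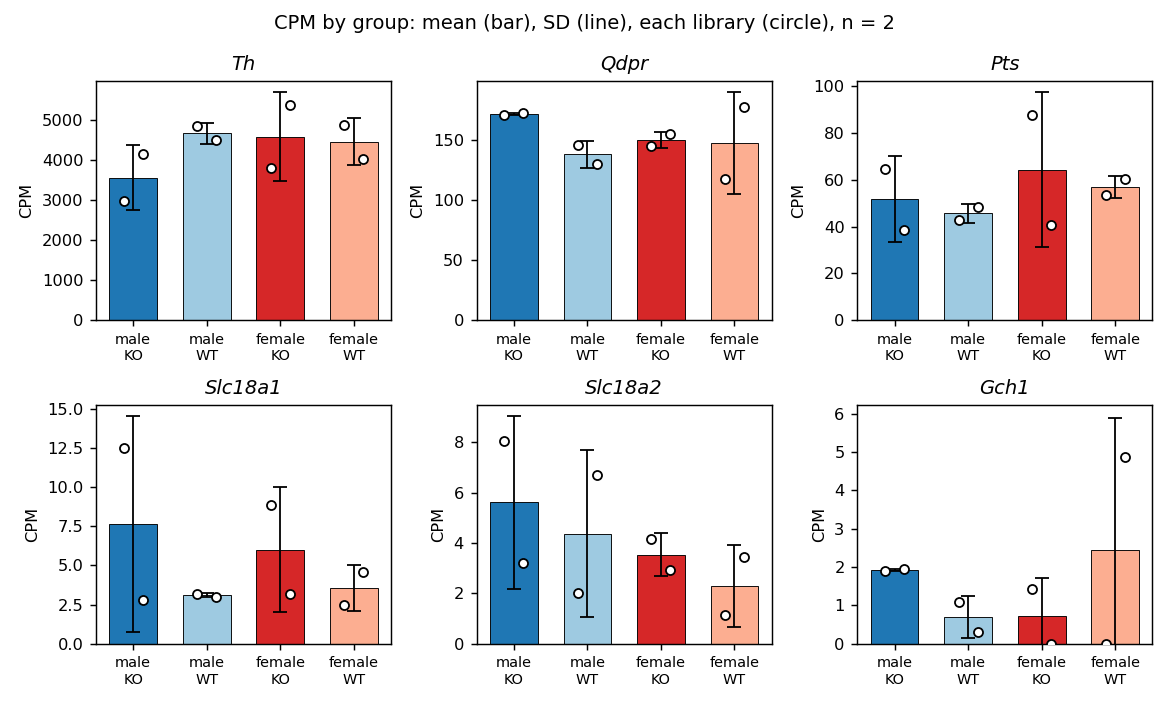
CPM of the 6 tested genes by group, with the mean as a bar, the SD as a line and each of the 2 libraries as a circle. Th is lower (2975 and 4138 against 4851 and 4481 CPM) and Qdpr higher (171 and 172 against 146 and 130 CPM) in male KO than in male WT without overlap, and the high Slc18a1 means of both KO groups come from 1 library each.

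In males alone, KO and WT libraries did not overlap for 3 of the 6 tested genes, against 29.1% of all tested genes. Th was lower in both male KO libraries than in either male WT library, which held for 14.5% of all tested genes, with a log2 fold change of -0.39 (SE 0.24, 95% interval -0.96 to 0.17). Without male KO library 1 it was -0.17. All 10 of the C-LTMR markers, Th among them, had a negative value in males (median -0.38), while all 8 myelinated afferent markers (median 1.53) and all 8 peptidergic markers (median 1.84) had a positive one. Other lists were mostly positive too, with 7 of 7 vascular and fibroblast markers (median 4.84), 4 of 4 tested nonpeptidergic markers (median 2.65), 3 of 3 tested autonomic markers (median 3.88) and 7 of 9 glial markers (median 1.13). Immune markers were split at 3 and 3, and 4 of 4 tested red blood cell markers were negative. Over all tested genes the median was 0.02 and 51.9% were positive. None of these markers passed, and their part in the value of Th was not tested. Qdpr was higher in both male KO libraries, at 0.32 (SE 0.22), and so was Gch1, at 1.48 (SE 2.70). None passed, with an adjusted p of 1 for each in edgeR's test, and the rule called 0.00454% of all tested genes in males, again Bhlha9. None of the 6 had an unadjusted p under 0.05 (3.5% of tested genes) or was called by DESeq2 (0.754% of tested genes). Slc18a1 was at 1.31 in males with all libraries and at -0.16 without male KO library 1.

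In females, 0 of the 6 were free of overlap, against 29.3% of all tested genes, and 0 of 6 passed in edgeR's test, where 0.00454% of tested genes, Bhlha9 alone, did. None had an unadjusted p under 0.05 (3.81% of tested genes) or was called by DESeq2 (0.759% of tested genes). Th had a log2 fold change of 0.04 (SE 0.24, 95% interval -0.52 to 0.61). Of the C-LTMR markers 9 of 10 had a positive value in females (median 0.21), of the peptidergic markers 1 of 8 (median -3.13) and of the myelinated afferent markers 5 of 8 (median 0.29). A positive value was also found for 1 of 9 glial markers (median -0.47), 1 of 7 vascular and fibroblast markers (median -9.97) and 2 of 4 tested nonpeptidergic markers (median 0.18). Of all tested genes 49.0% were positive in females, and none of these markers passed. Pts was at 0.17, Qdpr at 0.02, Slc18a2 at 0.62 and Slc18a1 at 0.76. Without female KO library 1, Slc18a1 was at -0.16 and Pts at -0.48. Gch1, at 0 in a library of each genotype, was at -1.77 (SE 2.73).

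The difference between the sexes in the KO effect was tested as an interaction, males minus females. For Th it was -0.43 on the log2 scale (SE 0.33, 95% interval -1.23 to 0.36, adjusted p = 0.9999 in edgeR's test), so the separation seen in males was not shown to differ from females. None of the 6 passed, nor did any gene of the 22013 (0%). None of the 6 had an unadjusted p under 0.05 (4.73% of tested genes) or was called by DESeq2 (0.986%) for the interaction. Between males and females over both genotypes, Th differed by -0.15 (SE 0.17, 95% interval -0.55 to 0.26), and 0 of the 6 passed, where 0.0136% of tested genes did. None of the 6 had an unadjusted p under 0.05 (4.8% of tested genes) or was called by DESeq2 (0.391%) in that comparison. In the authors' deposited tables of genes past 5% for KO against WT, which list 150 genes in males and 13 in females, 0 of the 10 genes are listed, and Bhlha9 is in both.

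**Figure D3:**
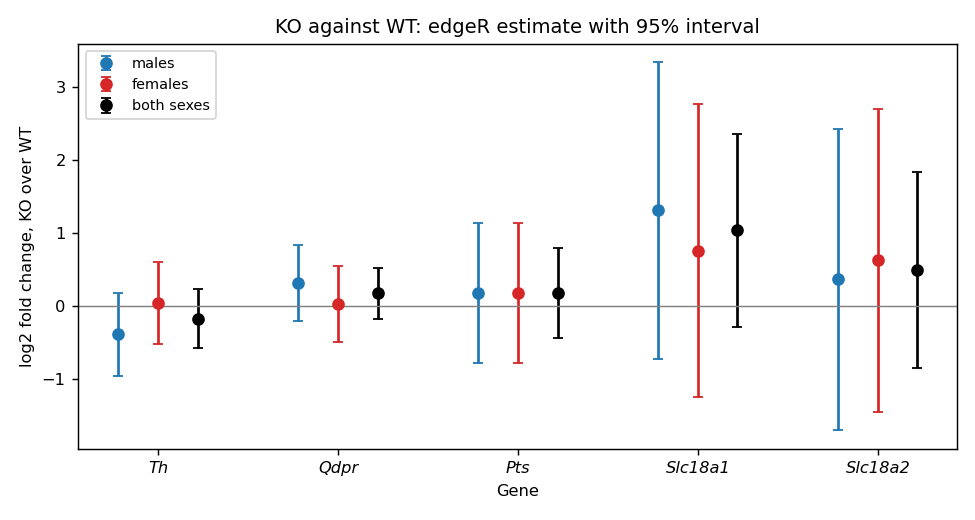
Log2 fold change of KO over WT for 5 genes in males, females and both sexes, with 95% intervals from edgeR. Every interval includes 0. Those of Th and Qdpr over both sexes are the narrowest, from -0.58 to 0.23 and from -0.18 to 0.52, and those of Slc18a1 and Slc18a2 are wide. Gch1 is left out because its interval spans -5.19 to 4.90.

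The wider pathway was described from 8 lists of 71 genes, of which 46 were tested. None of the 46 passed in edgeR's test in any of the 5 comparisons, and 2 to 6 of them had an unadjusted p under 0.05 depending on the comparison, where 3.5% to 4.8% of all tested genes did. DESeq2 called 1 of them, Insm1, in females. The 6 tested catecholamine genes had a median log2 fold change of 0.17 over both sexes (4 positive, 2 negative), and all tested genes had a median of 0.01.

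Of the other genes of tetrahydrobiopterin metabolism, 3 of 5 were at 1 CPM or more in all libraries. Pcbd1, the dehydratase that starts regeneration of the used cofactor, averaged 259 CPM per kb (212 ± 27.8 CPM, SD, n = 8), Pcbd2, its relative, 53.3 CPM per kb, and Spr, the reductase of the last synthetic step, 13.3 CPM per kb. Both regenerating enzymes, Pcbd1 and Qdpr (84.8 CPM per kb), thus stood above Spr, Pts (8.95 CPM per kb) and Gch1 (0.231 CPM per kb), which synthesise the cofactor. Gchfr, the feedback regulator of Gch1, had 0.170 to 2.74 CPM.

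Of the enzymes that break amines down, 5 of 9 were at 1 CPM or more in all libraries. Akr1a1, an aldehyde reductase, averaged 496 CPM per kb, and Maoa, which oxidises monoamines, 23.8 CPM per kb. Maob, the other monoamine oxidase, was at 0 in 6 libraries and reached at most 1.03 CPM. Maoa had 50.5 CPM in male KO library 1, where the other 7 libraries had 98.9 to 121 CPM. The list had a median log2 fold change of -0.06 over both sexes, with 0 of 8 tested genes passing.

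Genes that supply cofactors and substrates were mostly present, 8 of 9 at 1 CPM or more in all libraries. Slc3a2, the heavy chain of a large neutral amino acid carrier, averaged 47.4 CPM per kb, and Cyb561, the vesicular cytochrome that supports Dbh with electrons, 35.2 CPM per kb. The median log2 fold change of the list over both sexes was -0.01, with 0 of 9 passing. Of the kinases, phosphatases and binding proteins that act on Th protein, 12 of 13 were at 1 CPM or more in all libraries, led per kilobase by Mapk3 (ERK1) at 418 CPM per kb, the 14-3-3 protein gene Ywhag at 145 CPM per kb and Cdk5 at 129 CPM per kb, with a median of -0.01.

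Among the other plasma membrane and vesicular amine transporters, 1 of 7 was at 1 CPM or more in all libraries, Slc18b1, a vesicular polyamine transporter, with 2.04 CPM per kb. Slc22a3 and Slc18a3 were at 0 throughout. Of the 5 dopamine receptor genes none reached 1 CPM in all libraries: Drd2 had 0.665 to 4.33 CPM in KO and 0 to 2.52 CPM in WT libraries, and Drd4 and Drd5 had 0 counts in all 8.

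**Figure D4:**
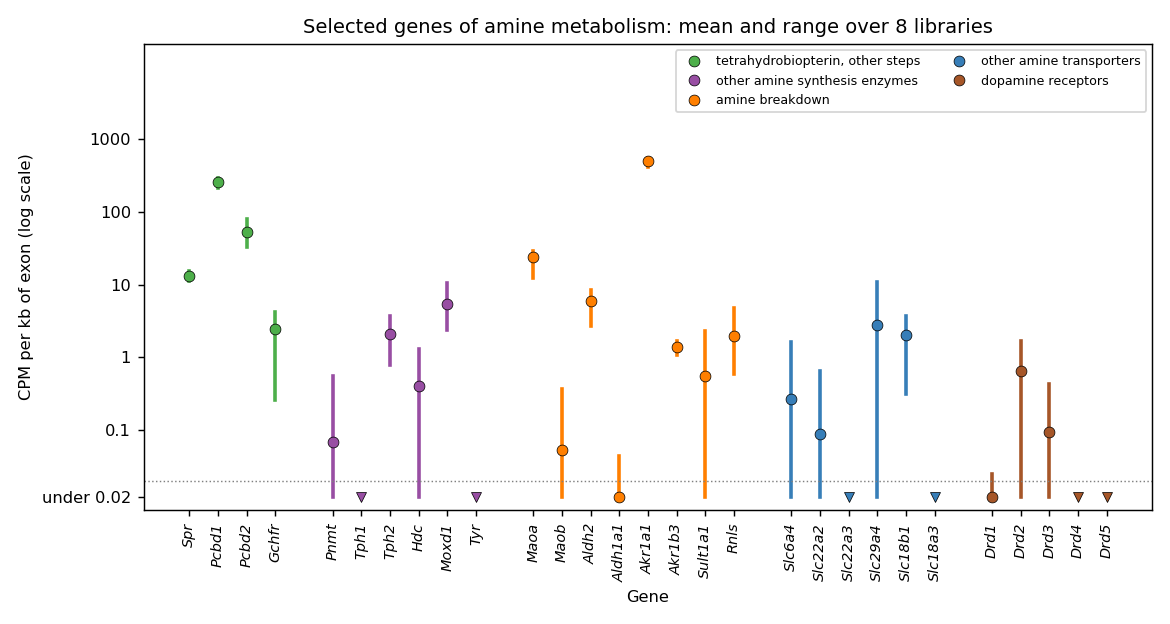
Mean (symbol) and range (line) over 8 libraries of selected other genes of amine metabolism, as CPM per kb of exon on a log scale, with triangles for genes at 0 in all libraries and values under 0.02 drawn below the dotted line. Akr1a1 (496) and Pcbd1 (259) stand highest among the genes shown, and no dopamine receptor is present in every library.

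Few transcription factors of catecholamine neurons reached 1 CPM throughout. Of 16, 2 were at 1 CPM or more in all libraries, against 23.1% of all genes in the counts. They were Insm1, a zinc finger factor of neuroendocrine development, and Nr4a2 (Nurr1), which drives Th in midbrain neurons, with a mean of 4.91 and 0.988 CPM per kb. At 0 in all 8 libraries were 9 of the 16, among which were Lmx1a, En1, En2, Foxa1, Foxa2, Hand1 and Hand2. Most of the 55573 genes were likewise at 0 in any given library, and the share at 0 in all 8 was not counted. Insm1 had 13.0 and 11.5 CPM in male KO, against 15.7 and 16.5 CPM in male WT, and 8.06 and 9.67 CPM in female KO, against 25.9 and 21.6 CPM in female WT. Every KO library lay below every WT library, which held in this direction for 0.895% of all tested genes. Its log2 fold change over both sexes was -0.90 (SE 0.26, n = 4 each) with an unadjusted p of 0.0099 and an adjusted p of 1 in edgeR's test, so it did not pass. By sex it was -1.42 (SE 0.29) in females and -0.39 (SE 0.29) in males, with an interaction of 1.03 (SE 0.40), males minus females. None of these passed in edgeR's test, while DESeq2 called Insm1 in females.

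Sympathetic neurons also use Th, and their markers were examined beside it. Of 10 autonomic markers, 0 were at 1 CPM or more in all libraries, and their summed level was 0.168 to 114 CPM in KO and 0.0943 to 11.4 CPM in WT libraries. The defining factor Hand2 was at 0 in all 8 libraries, and Phox2a reached at most 0.254 CPM. The ganglionic acetylcholine receptor genes were seen in some libraries, Chrnb4 at up to 8.98 CPM (male KO library 2) in KO and 3.31 CPM (female WT library 2) in WT libraries, and Chrna3 at up to 1.53 CPM (female KO library 1) in KO and 7.92 CPM (female WT library 2) in WT libraries. Npy, a sympathetic peptide that other neurons also use, had 113 CPM in male KO library 1 and 7.64 CPM in male WT library 1, with at most 0.0633 CPM elsewhere. The part of autonomic neurons in the level of Th was not tested. Mast cells hold vesicular amine transporters too, and 0 of their 6 markers were at 1 CPM in all libraries, with sums of 0 to 0.0281 CPM in KO and 0 to 0.251 CPM in WT libraries. Their defining Cma1 was at 0 in all 8, and Cpa3 was seen in male WT library 2 alone, at 0.0943 CPM. Of 8 immune markers 0 were at 1 CPM in all libraries and 0 were at 0 throughout, and they summed to 0 to 5.96 CPM in KO and 0.0633 to 12.9 CPM in WT libraries.

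The genes whose pattern over the 8 libraries was closest to each of the abundant members were named by the root mean square difference of centred log2 CPM, among 11856 genes with a mean of at least 5 CPM. For Th they were Olfm1 (0.068), Eif4a3 (0.078) and Bcl7b (0.080), beside a spread of Th itself of 0.25. For Qdpr the closest was its overlapping antisense gene Gm42413 (0.018), which shares counts with it, followed by Ptpmt1 (0.094) and Gm7308 (0.097). For Pts they were Thoc7 (0.12), Rps15a-ps6 (0.14) and Hspb11 (0.14), and for Slc18a1 Myo19 (0.27), Znhit3 (0.34) and Crim1 (0.35), where Slc18a1 itself had a spread of 0.80. All of these are descriptions over 8 libraries that share the same scaling.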

How the data were processed

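RNA from 8 sorted samples was measured. Per the labels' protocols, cDNA was made from 500 pg of RNA with SMART-Seq v4 (13 PCR cycles) and libraries with Nextera XT (12 cycles). The deposited counts are whole-number read counts per gene over exons, made with featureCounts 1.6.1, unstranded and with reads in overlapping genes counted in each, on Ensembl 97 of GRCm38, per the file headers. The names of the input files in the header speak of uniquely aligned reads, but no source used here states the aligner. The submitters' processing notes also name bcl2fastq 2.17.1.14, Subread 1.6.4 and DESeq2 1.14.1. The authors' deposited tables give p-values, a test statistic (a score) and log2 fold changes per the file headers. They were used only to see which genes they list.

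Symbols were found for 55394 of 55573 genes. Genes were filtered with filterByExpr (22013 left), scaled by TMM (0.979 to 1.02) and tested two-sided with edgeR 4.0.16 in R 4.3.3, by sex plus genotype over all 8 libraries and by 4 groups for each sex and the interaction, at an adjusted p of 0.05. The edgeR tests of KO against WT and of the interaction were also run on simulated data. The test between males and females and the alternatives were not. The simulated spread between libraries was set below the common coefficient of variation of 76.6% fitted here, so power at the real spread was not measured. The members, the lists and the tests were chosen with earlier results of these data known. Named beside the members were Bhlha9, up to 3 genes per list by level per kb among those at 1 CPM or more in all libraries, defining markers of autonomic neurons and mast cells, and the 3 closest patterns per member at a mean of 5 CPM. Other genes, such as those named as low or at 0, were named after their values were seen. Some genes of the lists are counted but not reported here by name. Alternatives were DESeq2 1.42.0, other scaling, no filter, a replicate block, each sex alone, genotype alone, other detection levels and leaving out each library. Promoters came from RefSeq (GRCm38.p6), and coordinates matched the reference annotation of GRCm38. Mitochondrial genes had 0 counts in every library.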

Additional observations from a re-analysis of the deposited data

Results flagged for a closer look

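Ddc in the 4 KO libraries was picked out because 1 library stood far from the others. Female KO library 1 had 2.47 CPM and the other 3 KO libraries were at 0. The gap to the nearest library was thus the whole range, a ratio of 1, above Dixon's critical value for 4 libraries. With 3 libraries at 0 that ratio is 1 whatever the remaining value, so it does not measure how unusual the value is. The WT libraries were all at 0. Of the members' groups of 4 libraries, 13 had values to examine. The rule picks out about 5% of groups by chance where values are normally distributed, which does not hold for counts with many zeros. Among all genes, 120 had at least 100 counts in 1 library and 0 in the other 7. What placed 126 counts in that library was not tested.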

How the results depend on the processing

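No member was called by any alternative in any comparison. Leaving out any library kept the number of members at 1 CPM in all remaining libraries at 5, and at 5 CPM it was 3. Counts of all genes called moved more. DESeq2 called 52 genes over both sexes, 166 in males, 167 in females, 217 for the interaction and 86 between males and females. Male libraries only gave 0 genes in males, and female libraries only gave 0 in females. Without the filter 5 genes were called between males and females, and leaving out a library gave 0 to 6, with 0 without male KO 1, male KO 2 or female WT 1, 1 without female WT 2 and 6 without male WT 2. The cause was not tested.

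The main tests did not pair libraries by replicate number. The correlation of deviations between same-numbered libraries lay between -0.056 and 0.234 and was above 0.1 in 2 of 6 pairs of groups. It was highest between male KO and female KO. With 2 libraries per group, these values cannot show whether same-numbered libraries shared a preparation. What the numbers stand for was not tested. With the replicate block 0 genes were called in males, in females and between males and females, Gch1 over both sexes was at 0.12, and Slc18a1 between males and females was at -0.015.

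Directions that turned when a library was left out are given as log2 ranges. Over both sexes they were -0.89 to 2.78 for Gch1 and -0.078 to 0.36 for Pts. In males they were -0.24 to 0.48 for Pts, -0.16 to 1.996 for Slc18a1 and -0.45 to 1.44 for Slc18a2. In females they were -10.26 to 8.45 for Gch1, -0.48 to 0.62 for Pts, -0.24 to 0.35 for Qdpr, -0.16 to 1.31 for Slc18a1 and -0.23 to 0.27 for Th. For the interaction they were -6.97 to 11.74 for Gch1, -0.44 to 0.65 for Pts, -0.035 to 0.56 for Qdpr, -0.91 to 1.46 for Slc18a1 and -1.27 to 0.81 for Slc18a2. Between males and females they were -1.02 to 2.74 for Gch1, -0.032 to 0.21 for Qdpr, -0.55 to 0.35 for Slc18a1 and -0.24 to 0.0061 for Th. Th kept a negative value over both sexes (-0.33 to -0.04) and in males (-0.67 to -0.17). With 1 library left in a group, that library is assumed to vary like the others. Where Gch1 or Ddc had 0 counts, the 3-count limit was at most 0.0529 CPM.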

Other observations

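Enzymes of other amines were present in part. Tph2, the tryptophan hydroxylase of serotonin neurons, had 2.81 and 4.58 CPM in male KO, against 10.8 and 8.72 CPM in male WT, and 2.23 and 8.71 CPM in female KO, against 5.89 and 5.02 CPM in female WT. It was above 1 CPM in all 8 libraries, and the male KO libraries lay below the male WT libraries, as for 14.5% of all tested genes, while the females overlapped. Its log2 fold change in males was -1.40 (SE 0.68), with an adjusted p of 1 in edgeR's test. Tph1, the other tryptophan hydroxylase, and Tyr, tyrosinase, were at 0 in every library. Moxd1, a relative of Dbh whose substrate in mammals is unsettled, had 20.8 and 33.4 CPM in male KO, against 7.66 and 12.3 CPM in male WT, and 14.6 and 12.5 CPM in female KO, against 25.5 and 10.3 CPM in female WT. It was higher in both male KO libraries, as for 14.5% of all tested genes, at a log2 fold change of 1.44 (SE 0.52) and an adjusted p of 1 in edgeR's test, and overlapped in females.

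Hdc, which makes histamine, ranged from 0.157 to 4.55 CPM in KO and from 0 to 8.27 CPM in WT libraries. The serotonin transporter Slc6a4 was seen in male KO library 1 at 7.36 CPM and in male WT library 1 at 2.43 CPM and was at 0 in the other 6. Slc29a4, a low-affinity monoamine transporter, ranged from 0 to 31.1 CPM in KO and from 1.35 to 11.3 CPM in WT libraries. No test of these 3 genes passed in any comparison.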
